A study of Mus musculus with 12 samples.

Results

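The transcripts of the mouse mitochondrial genome were examined as the rows of the deposited count table whose gene symbol starts with mt-, which were 37 of 55450 genes. They comprise 13 mRNAs, 2 rRNAs and 22 tRNAs. The RNA came from brains and livers of male mice, 7 to 9 weeks old, of 2 genotypes at the Vaultrc5 locus, which encodes a small non-coding RNA of the vault ribonucleoprotein particle. The 4 groups held 3 libraries each. The control genotype is Vaultrc5+/+ in the protocol and wild-type in the genotype label, while the titles call these libraries flx. The knockout genotype is Vaultrc5-/-. The labels give no strain and no treatment, and they do not say whether a brain and a liver came from the same mouse. Nothing in them says that the 3 libraries of a group came from separate animals, so p-values measure the spread between these libraries, which may be technical.

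The mitochondrial genome is a small circle transcribed from both strands into long precursors that run through nearly all of its genes. The precursors are cut mainly at the tRNAs that lie between the other genes, which releases the rRNAs and the mRNAs. The mRNAs encode core subunits of respiratory complexes I, III and IV and of the ATP synthase, while the remaining subunits, the RNA polymerase and the processing enzymes are encoded in the nucleus. Once released, each mRNA has its own stability, so transcripts that start from one precursor can reach different levels. Pieces of mitochondrial DNA have also been inserted into nuclear chromosomes during evolution, and such copies can share long stretches of sequence with the genes they came from.

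The labels and the tissue markers were checked first. Vaultrc5 had 1 to 4 counts per library in wild-type brain and 33 to 48 in wild-type liver, and 0 counts in all 6 knockout libraries. A brain library held 14844971 to 18567381 counts and a liver library 23247449 to 27155480. Levels are given as CPM, the count of a gene scaled to the total of its library, on which a floor of 3 counts corresponds to 0.162 to 0.202 for brain libraries and 0.110 to 0.129 for liver libraries. Floors cover counting error only. The neuronal gene Snap25 had 31003 to 40259 counts per brain library and at most 3 per liver library, and the hepatocyte gene Alb had at most 5 counts in brain. The summed level of 6 neuron markers was 4374 to 5624 CPM in brain and 18.2 to 26.5 CPM in liver. The sum of 5 hepatocyte markers was 0.118 to 2.19 CPM in brain and 40034 to 70073 CPM in liver. Among the other cell types, the sum of 4 oligodendrocyte markers ran from 1681 to 6103 CPM in wild-type and from 1873 to 3076 CPM in knockout brain. In liver, 5 markers of microglia and macrophages summed to 110 to 146 CPM in wild type and 122 to 244 CPM in knockout, and 3 cholangiocyte markers to 20.7 to 30.9 and 20.99 to 98.2 CPM. Marker lists of endothelium, astrocytes, choroid plexus, stellate cells and red cells overlapped between genotypes in liver, and in brain all but endothelium did (51.2 to 58.2 CPM in wild type and 59.6 to 62.5 CPM in knockout). The choroid plexus sum spread widely between brain libraries, from 3.82 to 460 CPM in wild type and from 7.44 to 644 CPM in knockout. This list and that of astrocytes do not mark brain alone. In wild-type liver they summed to 2802 to 3792 and 755 to 1156 CPM, and the astrocyte list to 538 to 923 CPM in wild-type brain. The part of cell makeup in the results below was not tested.

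Most of the mRNAs have close or identical copies among the other genes of the table. A search of the annotated transcripts of GENCODE M21 (GRCm38) with each mt- transcript found 11 nuclear genes that match an mt- gene over at least 100 bases with at least 95% identity, and 9 of the 13 mRNAs have such a copy. All 11 are annotated as pseudogenes. The group with the closest match consists of 7 genes in 1 run on the minus strand at chr1:24611535-24616197, namely Gm28439 (matching mt-Nd4), Gm10222 (mt-Nd4l), Gm28438 (mt-Nd3), Gm28437 (mt-Co3), Gm10925 (mt-Atp6), Gm28661 (mt-Co2) and Gm29216 (mt-Co1). Of these, 5 match without a single mismatch over lengths of 294 to 876 bases. A second run of 3 copies lies on chromosome 2 (Gm13341, Gm13340 and Gm13339) and the last, Gm4076, on chromosome 13. These more diverged copies match at 95.2 to 97.6% and received at most 156 counts in any library.

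The sequences below show how little separates the 2 kinds of gene. They are read from the GENCODE M21 transcripts, 5′ to 3′, with the bases that differ between the pair in capitals. The first 60 bases of mt-Co2 (chrM:7013-7072, plus strand, exon) and of Gm28661 (chr1:24615506-24615565, minus strand, exon) carry no difference.
mt-Co2: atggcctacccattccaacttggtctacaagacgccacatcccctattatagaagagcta
Gm28661: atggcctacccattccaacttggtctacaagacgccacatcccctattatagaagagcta
For mt-Nd3 (chrM:9459-9519) and Gm28438 (chr1:24613059-24613119, minus strand) the pair differs at 1 base of the aligned 345. It is T3C, where positions count from 1 at the 5′ end of the mt- transcript, the mt- base comes first and the base of the copy last.
mt-Nd3: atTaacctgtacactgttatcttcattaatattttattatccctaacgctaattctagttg
Gm28438: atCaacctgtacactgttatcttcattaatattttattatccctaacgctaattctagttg
For mt-Co1 (chrM:6390-6450) and Gm29216 (chr1:24616128-24616188, minus strand), the 1 difference in 483 aligned bases is A1066T.
mt-Co1: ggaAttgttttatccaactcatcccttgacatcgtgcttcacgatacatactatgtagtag
Gm29216: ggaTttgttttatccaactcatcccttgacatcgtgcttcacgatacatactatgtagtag
The chromosome 2 copy of mt-Co1 is shown for contrast. In this stretch of 90 bases (chrM:5772-5861 and chr2:22589114-22589203, minus strand), Gm13340 differs from mt-Co1 at 5 bases, and over the whole gene at 37.
mt-Co1: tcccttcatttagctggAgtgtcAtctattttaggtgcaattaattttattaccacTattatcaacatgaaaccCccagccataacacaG
Gm13340: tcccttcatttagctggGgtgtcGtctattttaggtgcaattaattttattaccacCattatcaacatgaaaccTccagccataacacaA

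The counts were divided between these pairs very unevenly, and differently from gene to gene. Of the counts on mt-Co2 plus its copies, the mt-Co2 row held 0 to 1.16% in the 12 libraries. The mt-Co3 row held 1.52 to 11.4%, the mt-Atp6 row 4.94 to 12.1%, the mt-Nd4l row 43.7 to 72.2% and the mt-Co1 row 87.3 to 93.5%. The rows of mt-Nd2, mt-Nd4 and mt-Nd5 held at least 99.98% although they too have copies. In percentage points the least stable division was that of mt-Nd3. Its row held 100% of the counts in liver wild type 1 and 2 but 43.2% in liver wild type 3, and 35.3, 83.5 and 36.6% in the liver knockout libraries. Relative to their own size, the parts held by the mt-Co2 and mt-Co3 rows varied more. The values of 7 of the 13 mRNAs were fractional in at least 1 library (more than 0.005 from a whole number), which arises in estimated counts when a read is shared out among several genes. From the table alone, reads of a mitochondrial mRNA and reads of its nuclear copy cannot be told apart.

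**Figure D1:**
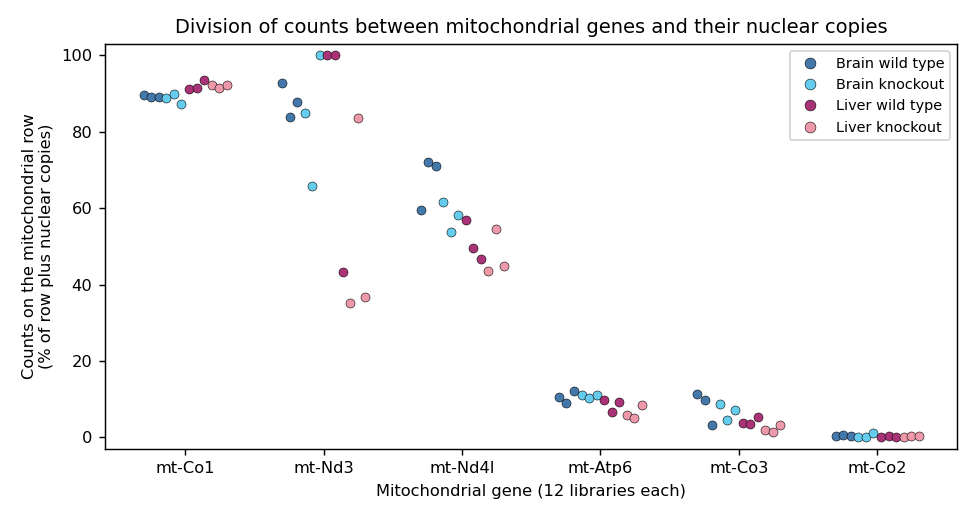
Share of the counts that fell on the mitochondrial row, as a percent of that row plus its nuclear copies, for 6 mRNAs, with 1 point per library coloured by group. The mt-Co2 row holds at most 1.16%, and the points of mt-Nd3 spread from 35.3 to 100%.

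Because of this division, most levels below are given as the sum of the mt- row and its copies, with the row as deposited beside it where the difference matters. The sum was chosen after the data had been seen. Across the 12 libraries, with each group's mean removed, the log2 level of the mt-Co2 row correlated with the mean of the other mRNAs at r = -0.27, and the sum at r = 0.88. The same values were -0.15 and 0.79 for mt-Nd3, 0.42 and 0.88 for mt-Co3, and 0.77 and 0.99 for mt-Atp6. For the mRNAs whose value was the same as row and as sum, r was 0.99 for mt-Nd4 and mt-Atp8, 0.97 for mt-Cytb, 0.91 for mt-Nd1, 0.90 for mt-Nd5, 0.87 for mt-Nd2 and 0.65 for mt-Nd6. These correlations are descriptions over points that share a library and its depth. Together the 11 copies took 1.18 to 1.52% of all counts of a brain library and 1.86 to 2.56% of a liver library, which was 33.3 ± 1.0% of the counts on the mRNAs and copies in wild-type brain and 30.8 ± 0.1% in wild-type liver (SD, n = 3).

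The mt- rows as deposited made up 3.45, 3.24 and 2.97% of library counts in wild-type brain and 3.00, 3.36 and 2.60% in knockout brain. In liver they made up 5.62, 4.83 and 4.86% in wild type and 6.66, 4.65 and 6.10% in knockout. Every liver library was above every brain library, and wild type and knockout overlapped within each tissue. With the copies included, the mean share was 4.63 ± 0.28% in wild-type brain, 4.33 ± 0.55% in knockout brain, 7.14 ± 0.65% in wild-type liver and 8.08 ± 1.40% in knockout liver (SD, n = 3). The liver share was thus 1.54 times that of brain in wild type and 1.87 times in knockout. In RNA from whole tissue, more mitochondria-rich cells and more mitochondrial RNA per cell cannot be told apart.

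**Figure D2:**
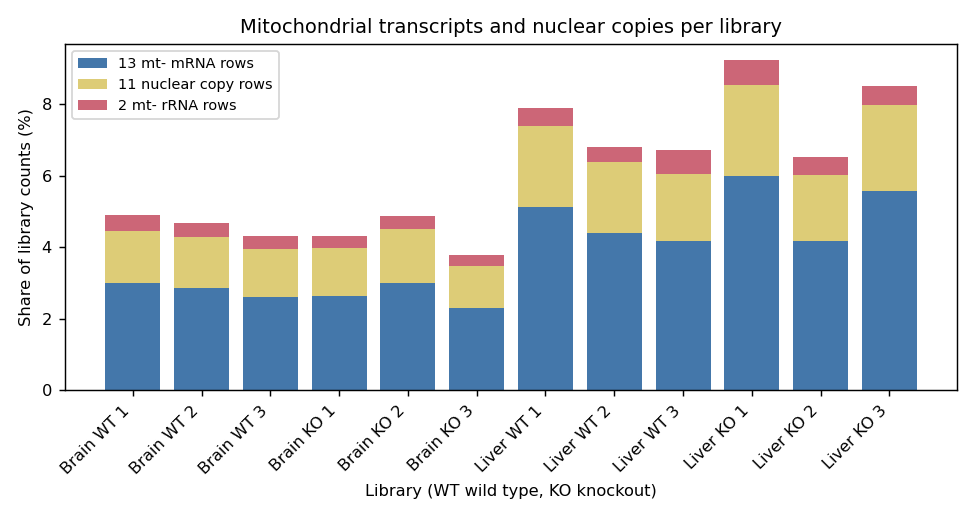
Percent of all counts of each of the 12 libraries that lie on the 13 mt- mRNA rows, the 11 nuclear copies and the 2 mt- rRNA rows, stacked. The brain libraries reach 3.78 to 4.89% and the liver libraries 6.52 to 9.23% in all.

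The mRNAs provided most of the mt- counts. The 2 rRNAs, which form the core of the small and large subunits of the mitochondrial ribosome, held only 0.298 to 0.446% of the library in brain and 0.419 to 0.678% in liver. The library kit removes ribosomal RNA, so these values describe what the depletion left and not the rRNA of the tissue. Per kilobase, mt-Rnr1 (chrM:70-1024, the small subunit rRNA) exceeded mt-Rnr2 (chrM:1094-2675, the large subunit rRNA) by 3.33 to 4.77 times in the brain libraries and by 3.23 to 4.51 times in liver. Within groups, the correlation with the level of the mRNAs over the 12 libraries was r = 0.10 for mt-Rnr2 and r = 0.51 for mt-Rnr1.

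The tRNAs were close to absent from these libraries. They are 59 to 75 bases long, and 19 of the 22 had no count in any library. The other 3 did not exceed the floor of 3 counts in any library. The methionine tRNA mt-Tm (chrM:3845-3913) had 3 counts in each of wild-type brain 2 and 3, 2 and 1 in knockout brain 1 and 2, and 1 in liver wild type 2. The leucine tRNA mt-Tl1 (chrM:2676-2750) had 1 or 2 counts in 4 libraries, and the valine tRNA mt-Tv (chrM:1025-1093) 1 count in 3 libraries. The gene sequences of the first 2 are shown because they were counted in more libraries than any other tRNA.
mt-Tm: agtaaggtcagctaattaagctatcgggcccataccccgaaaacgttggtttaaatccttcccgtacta
mt-Tl1: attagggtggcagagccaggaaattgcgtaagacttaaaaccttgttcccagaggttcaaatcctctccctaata
The rRNA gene mt-Rnr2 ends at the base before mt-Tl1 and mt-Nd1 begins at the base after it. Whether these few counts came from tRNA or from uncut precursor was not tested, and none of the 22 could be compared between groups.

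Levels of the mRNAs were compared per length, as CPM per kilobase of the annotated gene with copies included. The complex IV catalytic subunit mt-Co1 was highest in every group, at 8401 ± 210 in wild-type brain and 14362 ± 1251 in wild-type liver (SD, n = 3). In wild-type brain it was followed by mt-Co3 (6455 ± 146), mt-Co2 (6186 ± 203) and mt-Atp6 (5914 ± 511), and in wild-type liver by mt-Atp6 (9137 ± 1101), mt-Co3 (9021 ± 1324) and mt-Co2 (8308 ± 721). These 3 neighbours in the order differed by less than the sum of their SDs in both tissues, so their order is not settled. The rows as deposited give another order, apart from mt-Co1, which was again highest in every group. The mt-Co2 row stood at 22 ± 14 in wild-type brain and 15 ± 17 in wild-type liver, the lowest of all mRNAs in each group. The mt-Co3 row stood at 529 ± 283 and 373 ± 45, and the mt-Atp6 row at 617 ± 73 and 789 ± 208.

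A middle group followed. It held the complex I subunit mt-Nd1 at 3578 ± 430 in wild-type brain, mt-Cytb, the mitochondrial subunit of complex III, at 2769 ± 245, and the complex I subunit mt-Nd4 at 2660 ± 192. In wild-type liver mt-Cytb (4679 ± 591), mt-Nd1 (4311 ± 510) and mt-Nd4 (3938 ± 484) differed from the next in this order by less than the sum of their SDs. Lower still in wild-type brain were the complex I subunits mt-Nd2 (1867 ± 339), mt-Nd4l (1764 ± 193), mt-Nd3 (1595 ± 152) and mt-Nd5 (1186 ± 95). With copies the lowest mRNA in all 4 groups was mt-Nd6, a complex I subunit and the only mRNA on the minus strand (chrM:13552-14070), at 261 ± 14 in wild-type brain and 414 ± 92 in wild-type liver. As deposited, the mt-Co2 row lay below it in all groups and the mt-Co3 row in both liver groups. In the 12 libraries mt-Co1 with copies exceeded mt-Nd6 per kilobase by 26.6 to 42.9 times.

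**Figure D3:**
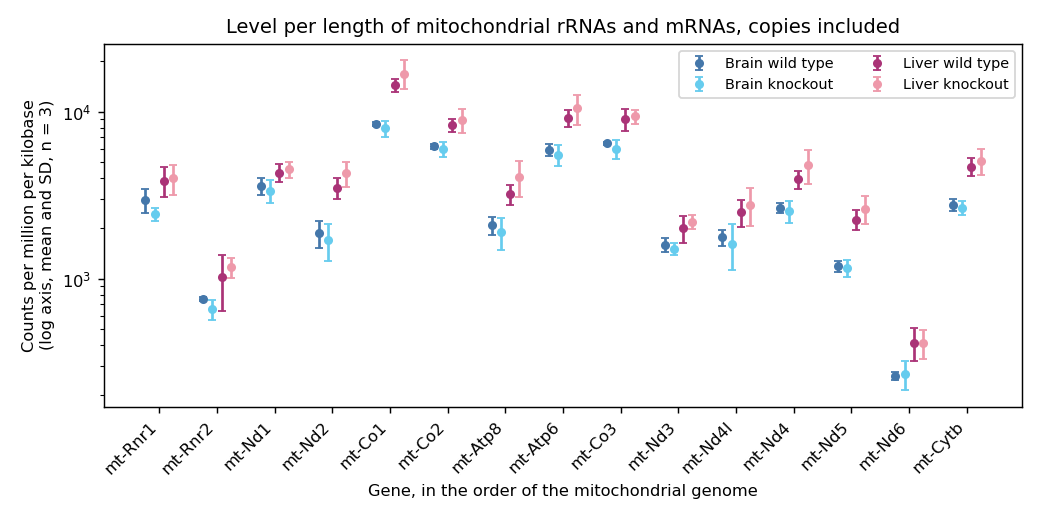
Level per length (CPM per kilobase, log axis) of the 2 rRNAs and 13 mRNAs in genome order, with copies included. Points are group means and bars the SD of 3 libraries, and mt-Co1 is highest and mt-Nd6 lowest in each group.

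In animal mitochondria 2 pairs of these genes stay joined on 1 mature mRNA. The ATP synthase subunits mt-Atp8 (chrM:7766-7969) and mt-Atp6 (chrM:7927-8607) overlap by 43 bases, and this stretch is printed with the overlap in capitals and 20 bases on either side (chrM:7907-7989, plus strand).
mt-Atp8 and mt-Atp6: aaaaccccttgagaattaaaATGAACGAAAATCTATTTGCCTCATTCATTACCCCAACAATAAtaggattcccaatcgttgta
Per kilobase of full annotated length and with copies, mt-Atp6 exceeded mt-Atp8 by 2.75 to 3.19 times in brain and by 2.50 to 2.93 times in liver. How reads in an overlap were assigned is not given in the sources used here. The chromosome 1 run of copies has no annotated gene in the 233 bases between Gm10925 and Gm28661, where a copy of mt-Atp8 would lie, and the counts of mt-Atp8 were whole numbers in all libraries. For the complex I pair mt-Nd4 and mt-Nd4l, which overlap by 7 bases, the ratio was 1.44 to 2.00 in brain and 1.495 to 1.79 in liver. The annotated lengths are 681 bases for mt-Atp6, 204 for mt-Atp8, 1378 for mt-Nd4 and 297 for mt-Nd4l. With the same number of bases taken off each length, as done for mt-Co1 below, the ratios of both pairs would be lower. How far the genes of a pair differ on such shorter lengths was not tested.

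The makeup of the mRNA pool lay apart between the tissues for some genes. As a share of the per-kilobase total of the 13 mRNAs with copies, mt-Co1 was 18.8 ± 0.9% in wild-type and 18.9 ± 0.6% in knockout brain, against 21.3 ± 0.7% in wild-type and 22.1 ± 1.1% in knockout liver. As deposited, over the 13 rows, its share was 29.3 ± 1.9 and 29.6 ± 0.6% in brain and 33.5 ± 2.0 and 34.8 ± 1.9% in liver. The share of mt-Nd1 in wild-type brain over the deposited rows was 13.9 ± 0.5%, and the shares that follow are with copies. The share of mt-Nd2 was 4.16 ± 0.50% in wild-type brain and 5.17 ± 0.30% in wild-type liver, and that of mt-Nd5 was 2.65 ± 0.12% and 3.33 ± 0.09%. Going the other way, mt-Nd1 made up 7.98 ± 0.46% in wild-type brain and 6.37 ± 0.07% in wild-type liver. Within a tissue the shares of wild type and knockout lay close together, for example 7.98 ± 0.19% for mt-Nd1 in knockout brain. These shares were not tested.

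The contrast of the tissues gene by gene used edgeR's quasi-likelihood test with TMM scaling, a scaling that sets the bulk of genes level between libraries, and called a gene at a Benjamini-Hochberg adjusted p under 0.05 over all genes tested. Each genotype was tested on its own. The 15 mRNAs and rRNAs passed the filter on low counts. As deposited, 13 of the 15 were called lower in wild-type brain than in wild-type liver, against 34.7% of the 18850 genes tested. In the knockout 12 of 15 were called lower in brain, against 35.2% of 18785 genes. The exceptions were mt-Co2 and mt-Co3 in both genotypes and mt-Nd3 in the knockout, and all of them are genes whose counts were divided with a copy. The wild-type call of the mt-Nd3 row (-1.12 ± 0.41, adjusted p = 0.0377, edgeR) was lost without any 1 library other than liver wild type 3, with an adjusted p of 0.0538 to 0.126. With copies summed, all 15 were called lower in brain in both genotypes, again against 34.7% and 35.2% of genes, with adjusted p-values of at most 0.00173 in wild type and 0.000979 in knockout (edgeR). The median log2 fold change of the 15 sums, brain against liver, was -1.40 in wild type and -1.70 in knockout, and that of all genes was 0.21 in both.

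**Figure D4:**
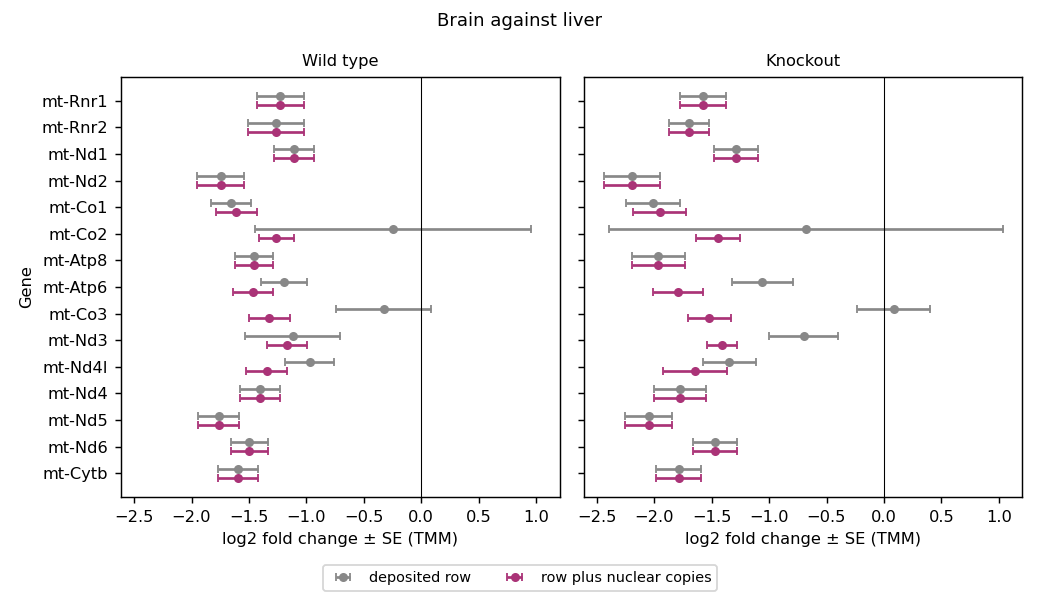
Log2 fold change of brain against liver, with SE, for each of the 15 genes as the deposited row and as the row plus nuclear copies, in wild type (left) and knockout (right). With copies included, every gene lies between -1.76 and -1.11 in wild type and between -2.20 and -1.29 in knockout.

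The size of this difference depends on the scaling. When library totals were used in place of TMM, the median of all genes moved to 1.05 in wild type and 1.07 in knockout, and the median of the 15 sums to -0.57 and -0.83. A scaling moves all genes of a library alike, so the distance of the sums from the median gene is nearly the same under both by construction. Under library totals 11 of the 15 sums were called lower in wild type, against 21.2% of genes, and 14 of 15 in knockout, against 20.7%. As rows, 7 were called lower in wild type, and in the knockout 9 were called lower and mt-Co3 higher, where 11614 of 18785 genes were called higher. On the CPM scale, groups that did not overlap were found for 11 of the 15 sums in wild type and for 14 in knockout, against 85.7% and 85.6% of the genes tested, so lack of overlap by itself does not set these genes apart.

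Among the complex IV mRNAs, mt-Co1 with its copies stood at 13084, 13238 and 12616 CPM in the wild-type brain libraries and at 24417, 21197 and 20955 CPM in wild-type liver. The groups did not overlap, and the log2 fold change was -1.61 ± 0.18 (SE, adjusted p = 8.04e-05, edgeR). The mt-Co2 row had 9.8, 26.5 and 9.7 CPM in wild-type brain and 7.2, 23.2 and 0.0 CPM in wild-type liver, which overlapped, and its log2 fold change was -0.25 ± 1.20. With its copies mt-Co2 stood at 4311, 4311 and 4071 CPM in brain and at 6066, 5127 and 5855 CPM in liver, with no overlap and a log2 fold change of -1.26 ± 0.15. The same happened for mt-Co3, whose row gave -0.33 ± 0.41 and whose sum gave -1.32 ± 0.18. In the knockout the mt-Co3 row stood at 0.08 ± 0.32 and the sum at -1.52 ± 0.18.

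Of the complex I mRNAs, mt-Nd5 and mt-Nd2 showed the lowest brain-to-liver values. The level of mt-Nd5, which has almost no divided counts, was 2224, 2299 and 1967 CPM in wild-type brain and 4718, 3991 and 3625 CPM in wild-type liver (log2 fold change -1.76 ± 0.18). In the knockout it was 2082, 2370 and 1877 CPM in brain and 5775, 4025 and 4526 CPM in liver (-2.05 ± 0.20). For mt-Nd2 the log2 fold change was -1.75 ± 0.20 in wild type and -2.20 ± 0.24 in knockout. At the other end, mt-Nd1 gave -1.11 ± 0.18 and -1.29 ± 0.19. The minus-strand mRNA mt-Nd6 had 143, 135 and 129 CPM in wild-type brain and 211, 168 and 264 CPM in wild-type liver, a log2 fold change of -1.50 ± 0.16.

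The remaining members lay in between. The complex III mRNA mt-Cytb gave -1.60 ± 0.18 in wild type and -1.79 ± 0.20 in knockout, and mt-Atp8 gave -1.46 ± 0.16 and -1.965 ± 0.23. With its copy mt-Atp6 gave -1.47 ± 0.18 and -1.79 ± 0.22, and its row -1.19 ± 0.20 and -1.06 ± 0.27. For mt-Nd4l the sum gave -1.35 ± 0.18 and -1.64 ± 0.28, and the row -0.97 ± 0.21 and -1.35 ± 0.23. For the rRNAs the values were -1.23 ± 0.20 and -1.57 ± 0.20 for mt-Rnr1 and -1.26 ± 0.24 and -1.70 ± 0.17 for mt-Rnr2. On the CPM scale both rRNAs overlapped between wild-type brain and wild-type liver. The rRNA values describe what the depletion left, also where the rRNAs are counted among the 15. With copies summed, the values of 14 of the 15 were lower in the knockout contrast than in the wild-type contrast, the exception being mt-Nd6, while as rows mt-Atp6, mt-Co3, mt-Nd3 and mt-Nd6 were not. No tissue difference of these 15 was called different between genotypes, as the test of that difference below shows.

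The nuclear genes of the respiratory complexes went in the same direction under TMM. Of 36 nuclear complex I subunits, 35 were lower in brain in each genotype, against 34.7% of all genes tested in wild type and 35.2% in knockout (median log2 fold change -1.02 in wild type and -0.97 in knockout). All 9 complex III subunits were lower (medians -1.34 and -1.34), as were all 4 subunits of complex II, which has no mitochondrially encoded part (-1.81 and -1.76). Of 15 ATP synthase genes 14 were lower and 1 higher in each genotype (-1.16 and -1.14), and of 14 complex IV genes 10 were lower and 2 higher in wild type (-0.91). Higher in brain were 43.9% of all genes tested in wild type and 43.5% in knockout. Under library totals, where 21.2% of all genes were lower and 61.7% higher in wild-type brain, the counts were 14 lower and 2 higher for complex I and 5 lower and 3 higher for complex IV. In the same fit 4 of 4 complex II and 9 of 9 complex III genes were lower.

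Of 19 genes for transcription and DNA maintenance, 16 were lower and 1 higher in wild-type brain (median -0.62), and 12 and 1 in the knockout (-0.66). Of all genes tested under TMM, 34.7% were lower and 43.9% higher in wild-type brain, and for the knockout these shares were 35.2% and 43.5%. Under library totals the split was 6 lower and 6 higher in wild type, against 21.2% lower and 61.7% higher of all genes. The median of the list was then 0.22 against 1.05 for all genes, where TMM gave -0.62 against 0.21, so the sign of the list turned with the scaling. The distance to the median gene stays nearly the same by construction. The transcription factor Tfb2m, a partner of the mitochondrial RNA polymerase, had 14.2, 15.7 and 15.9 CPM in wild-type brain and 20.7, 20.7 and 22.4 CPM in wild-type liver (-1.31 ± 0.11). The DNA helicase Twnk gave -1.63 ± 0.14. The gene of this list that was higher in brain was Mterf2, of the mitochondrial transcription termination factor family, with 7.3, 8.1 and 8.1 CPM in brain and 2.0, 1.4 and 0.9 CPM in liver (1.64 ± 0.30).

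Of 39 genes for RNA processing and modification, 23 were lower and 4 higher in wild-type brain (median -0.70), and 23 and 5 in the knockout (-0.53), against the same shares of all genes as above (34.7% lower and 43.9% higher, then 35.2% and 43.5%). Library totals gave 11 lower and 17 higher in wild type, against 21.2% lower and 61.7% higher of all genes. Hsd17b10, which encodes a subunit of mitochondrial RNase P, had 9.5, 8.2 and 10.6 CPM in wild-type brain and 85.2, 61.5 and 59.3 CPM in wild-type liver (-3.70 ± 0.19). It is also an enzyme of fatty acid and amino acid breakdown. Lrpprc, which stabilises mitochondrial mRNAs, gave -1.55 ± 0.10. Higher in brain were the RNA helicase Dhx30, with 82.3 to 87.3 CPM in wild-type brain and 19.0 to 22.7 CPM in wild-type liver (1.16 ± 0.10), and Angel2 (0.48 ± 0.09).

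Of 8 regulators of mitochondrial biogenesis, 3 were lower and 1 higher in wild-type brain, and 2 and 2 in the knockout. Of all genes, 34.7% were lower and 43.9% higher in the wild-type contrast, with 35.2% and 43.5% in that of the knockout. The coactivator Ppargc1a was higher in brain, with 75.6, 67.9 and 72.9 CPM in wild-type brain and 12.3, 9.1 and 17.7 CPM in wild-type liver (1.64 ± 0.21). The transcription factor Gabpa was lower in brain (-1.97 ± 0.14), and so was Yy1 (-0.83 ± 0.12). On the CPM scale Yy1 overlapped between the tissues, at 70.0 to 74.1 CPM in wild-type brain and 62.2 to 80.2 CPM in wild-type liver, so its direction rests on the scaling. Of 15 markers of mitochondrial mass, such as outer membrane and matrix proteins, 9 were lower and 1 higher in wild-type brain (median -0.65), and under library totals 6 were lower and 7 higher, again against 21.2% and 61.7% of all genes.

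Whether loss of Vaultrc5 changed the mitochondrial transcripts was asked in each tissue. In brain none of the 15 members passed the adjusted threshold, as rows or as sums, and neither did any of the 18075 genes tested (0.0%). At an unadjusted p under 0.05 there were 122 genes (0.675%) and no member. With copies summed, 14 of the 15 log2 fold changes of knockout against wild type were below 0, with a median of -0.08 and a range from -0.26 to 0.04. The CPM ranges of the groups overlapped for all 15, while they did not overlap for 4.09% of the genes tested. Leaving out knockout brain 3, the library with the lowest mitochondrial share, moved the median to 0.01, with 9 of 15 values above 0. It was -0.04 without wild-type brain 1, -0.13 without wild-type brain 3 and -0.21 without knockout brain 2.

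The member with the smallest p in brain was mt-Rnr1, with 3307, 2695 and 2414 CPM in wild type and 2390, 2500 and 2093 CPM in knockout. The groups overlapped, and the log2 fold change was -0.26 ± 0.14 (unadjusted p = 0.118, adjusted p = 1, edgeR). Without wild-type brain 1 it was -0.14. As an rRNA, mt-Rnr1 was measured as what the depletion left. For mt-Co1 with copies, the wild-type values given above were matched by 12097, 13690 and 11017 CPM in knockout brain, a log2 fold change of -0.07 ± 0.12. The value of mt-Nd5 was -0.03 ± 0.13 and that of mt-Nd6 was 0.04 ± 0.15. As rows, mt-Co2 gave 0.21 ± 1.30 and mt-Co3 -0.39 ± 0.45, against -0.04 ± 0.12 and -0.10 ± 0.13 as sums. Leaving out 1 library moved the row values from -0.17 to -0.0091 for mt-Co1, from -0.77 to -0.078 for mt-Co3, and across 0 for mt-Co2, mt-Nd5 and mt-Nd6.

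In liver none of the 15 members passed the adjusted threshold either, as rows or as sums, and no gene among the 15329 tested did (0.0%). That includes Vaultrc5 itself, with 33 to 48 counts per wild-type library and 0 in the knockout (unadjusted p = 3.14e-05, adjusted p = 0.333, edgeR). At an unadjusted p under 0.05 there were 536 genes (3.5%), among them 1 member row, mt-Co3. This row had 313, 252 and 313 CPM in wild type and 147, 99.2 and 247 CPM in knockout. Every knockout library thus lay below every wild-type library, a lack of overlap found for 10.2% of the genes tested with copies summed. The log2 fold change of the row was -0.80 ± 0.30 (unadjusted p = 0.0355, adjusted p = 0.992, edgeR). With its copy the values were 8092, 7108 and 6017 CPM in wild type and 7888, 6531 and 7606 CPM in knockout, which overlapped, and the log2 fold change was 0.09 ± 0.17 (unadjusted p = 0.607, adjusted p = 0.992, edgeR). The lower row in knockout liver thus went with a smaller part of the counts on that row, 1.52 to 3.25% in knockout against 3.55 to 5.21% in wild type.

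**Figure D5:**
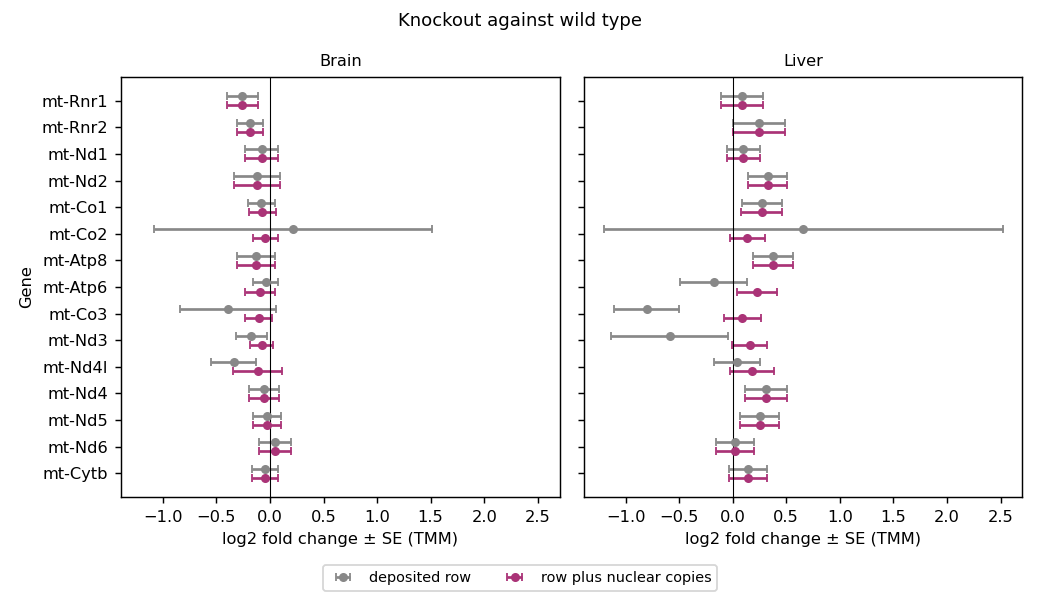
Log2 fold change of knockout against wild type, with SE, for each of the 15 genes as the deposited row and as the row plus nuclear copies, in brain (left) and liver (right). None passed the adjusted threshold, and the values with copies lie between -0.26 and 0.04 in brain and between 0.02 and 0.38 in liver.

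With copies summed, all 15 log2 fold changes in liver were above 0, with a median of 0.18 and a range from 0.02 to 0.38. Besides mt-Co3, the rows of mt-Atp6 (-0.18 ± 0.31) and mt-Nd3 (-0.59 ± 0.55) were below 0 and their sums (0.23 ± 0.19 and 0.16 ± 0.16) above it. For the sums, the CPM ranges of the groups overlapped in all 15, while they did not overlap for 10.2% of the genes tested. The largest value was that of mt-Atp8, with 755, 617 and 584 CPM in wild type and 999, 607 and 876 CPM in knockout (0.38 ± 0.19, unadjusted p = 0.0804). The second largest was mt-Nd2, with 4132, 3678 and 3098 CPM in wild type and 5243, 3713 and 4378 CPM in knockout (0.33 ± 0.18). Knockout liver 2 was the lowest of its group for all 15 sums, and without it the median was 0.29. Without wild-type liver 1 it was 0.28, and without knockout liver 1 it was 0.11, with 13 of 15 values above 0. Leaving out wild-type liver 2 also left 13 above 0, and leaving out wild-type liver 3 or knockout liver 3 left 14. The values of mt-Nd4 (0.31 ± 0.20), mt-Co1 (0.27 ± 0.19) and mt-Nd5 (0.25 ± 0.18) were of similar size, while mt-Nd6 gave 0.02 ± 0.18. Without knockout liver 1 the value was 0.23 for mt-Atp8, 0.20 for mt-Nd2, 0.18 for mt-Nd4 and 0.11 for mt-Nd5. Without wild-type liver 3 it was 0.21 for mt-Nd2 and 0.16 for mt-Nd5.

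In liver the replicate numbers of the 2 genotypes went together, so a fit with the replicate number as a block was also made. It called 2 genes, neither of them a member. In that paired fit the mt-Co3 row had an unadjusted p of 0.00505 and mt-Atp8 one of 0.0325, with adjusted p-values of 0.711 and 0.765. Between same-numbered liver libraries, the CPM sum was higher in the knockout in all 3 pairs for mt-Nd2 and mt-Nd5, in 2 pairs for 10 members and in 1 pair for mt-Co3, mt-Nd3 and mt-Nd6. The paired fit of the sums gave mt-Nd2 0.33 ± 0.16 (unadjusted p = 0.0696, adjusted p = 0.803, edgeR) and mt-Nd5 0.25 ± 0.15 (unadjusted p = 0.130, adjusted p = 0.815, edgeR). The DESeq2 Wald test called 10 genes in liver and no member.

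No list of nuclear genes for mitochondrial function had a gene past the adjusted threshold in either tissue. In brain the smallest unadjusted p among them belonged to the complex I subunit Ndufa2, with 18.7, 17.8 and 19.9 CPM in wild type and 16.98, 14.9 and 16.1 CPM in knockout, which did not overlap, as was the case for 4.09% of genes (-0.22 ± 0.10, unadjusted p = 0.0664, adjusted p = 1, edgeR). In liver it belonged to the ATP synthase subunit Atp5e, with 27.5, 24.2 and 23.1 CPM in wild type and 19.2, 16.5 and 19.4 CPM in knockout, which did not overlap either, against 10.2% of genes (-0.40 ± 0.10, unadjusted p = 0.00440, adjusted p = 0.992, edgeR). The medians of the nuclear subunit lists in liver were below 0, at -0.09 for complex I, -0.13 for complex III, -0.07 for complex IV and -0.12 for the ATP synthase, while that of the 13 mitochondrial mRNAs with copies was 0.18. Complex II, all nuclear, stood at -0.14, and the median of all genes was 0.01. In brain the nuclear lists were below 0 too, at -0.09, -0.09, -0.11 and -0.10 in the same order and -0.10 for complex II. There the 13 mitochondrial mRNAs with copies had a median of -0.08. Differences between these medians were not tested.

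The knockout effect was set against itself in the 2 tissues with an interaction term, which is also the difference between the tissue contrasts of the 2 genotypes. Among 20141 genes tested none passed the adjusted threshold (0.0%), and 489 genes (2.43%) and no member had an unadjusted p under 0.05. For the sums the median of the liver effect minus the brain effect was 0.27, with 14 of 15 values above 0 and the smallest unadjusted p at 0.119 (edgeR). For the rows it was 0.33, with 11 of 15 values above 0. The different signs of the sums in brain and liver were therefore not shown to be a difference between the tissues. These comparisons share their libraries with those above and give no separate evidence.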

How the data were processed

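Total RNA of 12 libraries, 3 per group, had been sequenced as single-end reads after ribosomal RNA depletion with a stranded ligation kit, per the labels' protocols. The submitters' processing notes name cutadapt, STAR and the mm10 build. The counting tool, its use of strand and the annotation are not given in the sources used here. The values, as deposited by the authors, are expected counts without normalization, and 5.06 to 5.71% of those in a library are fractional (over 0.005 from a whole number). All 55450 identifiers matched GENCODE M21 (GRCm38), from which coordinates and sequences were taken. The counts were rounded and fitted with edgeR 4.0.16 (quasi-likelihood test, TMM, filterByExpr, robust, Benjamini-Hochberg adjustment over all genes, threshold 0.05), and the SE is the log2 fold change divided by the root of the test statistic. DESeq2 1.42.0, other scalings and filters, a replicate block and leaving out each library were alternatives. Fits were tested on simulated data in which 200 genes changed 4-fold, with a spread set below the one fitted here. They recovered 94.5 to 98.5% of the changed genes, and 3.43 to 6.86% of the calls were false. Smaller changes were not simulated.

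Nuclear copies were sought with blastn 2.17.0 among annotated transcripts, not the whole genome, at 95% identity over 100 bases. All mRNAs, rRNAs and counted tRNAs are named, and nuclear genes by rank of p within a list: the first 2 per direction called in both genotypes, and the first in each knockout comparison. The mt- rows follow from the symbol. The members, gene lists and tests were chosen with earlier results of these data known. No pair of replicates agreed within sampling noise. Same-numbered liver wild-type and knockout libraries deviated together (r = 0.33, 0.36 and 0.40 over 13325 genes), so these numbers were taken as pairs by this check of the data alone.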

Additional observations from a re-analysis of the deposited data

How the results depend on the processing

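Summing the copies, and pairing or leaving out libraries together with it, were alternatives chosen after seeing the data. Among single members, 743 of 810 values kept direction and call. These values cover all 15 members in the tissue contrasts but only some of the 15 in the knockout comparisons. Changes of sign among all 15 rows are counted below. The counts of genes called in the tissue contrasts, both directions together, stayed within 1.5 times. With library totals those called lower in brain fell from 6542 to 3999 in wild type and from 6611 to 3887 in knockout, and members called from 13 to 7 in wild type. No alternative called a member in a knockout comparison or in the difference between tissues. In liver, 4 genes were called with every gene of at least 1 count, 10 by DESeq2 and 2 with the replicate block (2 also with copies summed). Without 1 library, the number was 0 to 1. The difference between tissues had 1 call by DESeq2 and 2 with the replicate block. In brain the block gave 0 calls, and same-numbered brain libraries did not all go together (r = 0.65, 0.62 and -0.02), nor did brain and liver libraries. With the block 13 members were called lower in the wild-type and 12 in the knockout tissue contrast, where 6400 of 18850 and 6448 of 18785 genes were.

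Directions that turned in the knockout and tissue comparisons have these values, and the cause was not tested. In knockout against wild-type brain, the mt-Co2 row went to -0.65 with the replicate block, and its sum to -0.043 (-0.047 with the block). In liver the sums of mt-Atp6, mt-Co3 and mt-Nd3 were 0.23, 0.091 and 0.16 (0.22, 0.10 and 0.18 with the block), and mt-Nd6 went to -0.019 with library totals. Brain against liver with library totals, mt-Co2 and mt-Co3 went to 0.60 and 0.50 in wild type, and mt-Co2 and mt-Nd3 to 0.17 and 0.18 in knockout. With the block mt-Co2 was 0.50 in wild type. The knockout mt-Co3 sum was -1.52 (-0.65 with library totals).

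Leaving out 1 library changed the sign of 9 of the 15 rows in brain knockout against wild type, 4 in liver, 2 in the wild-type and 1 in the knockout tissue contrast. Without knockout brain 3, 8 rows were above and 7 below 0, against 2 and 13 with it, and without knockout liver 1 there were 9 and 6 against 12 and 3. Among the members given values in the knockout comparisons, ranges crossed 0 in brain knockout against wild type for mt-Co2 (-1.66 to 0.91), mt-Nd5 (-0.11 to 0.043), mt-Nd6 (-0.094 to 0.18) and the median of the sums (-0.21 to 0.012), and in liver for mt-Atp6 (-0.43 to 0.074) and mt-Nd6 (-0.12 to 0.18). Brain against liver, they did for mt-Co2 (-0.997 to 1.26) and mt-Co3 (-0.65 to 0.014) in wild type and for mt-Co3 in knockout (-0.18 to 0.44).

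As a share of protein-coding counts, the mean of the mt- rows was 3.75, 3.48, 5.94 and 6.69% in wild-type brain, knockout brain, wild-type liver and knockout liver. As a share of all counts of a library with copies included, it was 4.63, 4.33, 7.14 and 8.08%. The per-kilobase share of mt-Co1 as deposited was 29.3% in wild-type and 29.6% in knockout brain and 33.5% and 34.8% in liver. On effective length (75 bases less) it was 27.2, 27.6, 31.3 and 32.6%, with rRNAs 25.7, 26.2, 29.7 and 31.2%, and with copies 18.8, 18.9, 21.3 and 22.1%. The depth allows no comparison of the tRNAs, and the division of reads between rows and copies limits mt-Co2, mt-Co3, mt-Atp6, mt-Nd3 and mt-Nd4l.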
